A study of Mus musculus with 9 samples.

Results

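The 8 scavenger receptor genes described here are Marco, Msr1, Colec12, Cd36, Scarb1, Cd163, Cd5l and Olr1. They were chosen by the gene names that the array files give, and 10 probes carried them. Of the 18161 genes that could be tested, 7 were scavenger receptors of this list, and Olr1 was too dim to be tested. The samples were peritoneal macrophages of male mice, sorted as CD45+F4/80+ cells, and their total RNA was hybridised to 9 single-colour Agilent arrays, 3 for each of 3 groups. Ctrl macrophages were kept alone in ordinary medium for 24 h. T macrophages shared a Transwell for 24 h with CT-26, a mouse colon carcinoma cell line, and sat in the lower chamber. M macrophages were the ones that migrated, taken from the upper chamber of a CT-26 co-culture, for a time not given in the sources used here. Strain, age and pooling of animals are not given either, and CT-26 is 1 cell line. The cell type label calls the T samples migratory whereas titles, descriptions and protocol give that name to M, and the groups used here follow the titles. Whether the 3 arrays of a group stand for separate cultures or animals is not labelled, and every p-value therefore measures only how these samples spread, which may be technical.

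Scavenger receptors are surface proteins that bind modified lipoproteins, apoptotic cells, microbes and polyanionic molecules and carry them into the cell. They are grouped into classes by structure: class A members such as Marco, Msr1 and Colec12 have collagen-like stalks, class B members such as Cd36 and Scarb1 span the membrane at both ends, and Cd163 and Cd5l are built of cysteine-rich domains. Peritoneal macrophages are a classical cell for studying them, because they take up oxidised lipoprotein and particles from the peritoneal fluid, and tumour-associated macrophages are often described by these markers.

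Promoter sequences are shown first for 3 members that the results turn on: Marco, lower in T than in Ctrl, and Cd36 and Cd5l, higher in M than in both other groups. Each is the 250 bases before the annotated start, 5′ to 3′ on the gene's own strand, from RefSeq on GRCm38.p6, a newer build than the mm9 positions that the array files give. Of the 8 members 5 had such a window. Capitals mark matches to a PU.1-type motif, GAGGAA on both strands, or to a nuclear receptor half-site, AGGTCA on both strands, each shown as it reads on the printed strand. In these windows 0 bases lay in more than 1 motif.
Marco promoter, chr1:120505025-120505274, minus strand: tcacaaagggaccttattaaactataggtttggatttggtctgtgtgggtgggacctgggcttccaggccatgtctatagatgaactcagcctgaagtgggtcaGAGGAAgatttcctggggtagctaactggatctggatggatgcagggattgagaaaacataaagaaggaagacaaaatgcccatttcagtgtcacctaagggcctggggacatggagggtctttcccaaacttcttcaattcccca
Cd36 promoter, chr5:17835897-17836146, minus strand: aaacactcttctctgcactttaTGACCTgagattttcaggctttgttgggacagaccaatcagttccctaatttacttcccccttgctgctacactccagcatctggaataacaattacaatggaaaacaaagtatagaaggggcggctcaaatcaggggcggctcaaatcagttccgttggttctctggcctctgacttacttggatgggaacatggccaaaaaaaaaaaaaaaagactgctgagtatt
Cd5l promoter, chr3:87357631-87357880, plus strand: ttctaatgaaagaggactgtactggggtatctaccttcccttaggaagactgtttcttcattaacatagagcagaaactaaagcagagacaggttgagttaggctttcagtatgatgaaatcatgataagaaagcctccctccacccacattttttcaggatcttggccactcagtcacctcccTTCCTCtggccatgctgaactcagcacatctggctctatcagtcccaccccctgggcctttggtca

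The only match in the Marco window was of the PU.1 type, starting 146 bases before the start, and so was that in the Cd5l window, at 66 bases. PU.1 is a transcription factor of the macrophage lineage. In the Cd36 window the only match was the nuclear receptor half-site, at 228 bases. Over all 32851 promoter windows of the table, 23.3% held the PU.1-type letters and 14.0% the half-site letters. The other motifs searched, on both strands unless stated, had no match in the windows printed here: an AP-1-type motif (TGANTCA, in 6.75% of all windows), an NF-kB-type motif (GGANTTTCC, 1.07%), an E-box (CACGTG, 6.02%), an NRF2-type motif (TGACNNNGC, 10.2%), a C/EBP-type motif (TTGCNNAA, 9.56%) and a TATA box (TATAAA, printed strand only, 7.59%). The Cd163 window matched none of the 8 motifs, and the Olr1 window matched the AP-1, PU.1 and half-site letters 60, 76 and 175 bases before the start. These matches describe letters in a window and are not binding sites.

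For 3 members the probe itself is shown, because the reading of the values turns on it: Msr1 and Scarb1 were each measured by a pair of probes that differed, and Cd163 was close to background. All are 60 bases long, written 5′ to 3′ as the array files give them, and each lies within the gene's transcript, with mm9 positions from the files.
Msr1 probe at transcript base 624, chr8:40709296-40709355, minus strand: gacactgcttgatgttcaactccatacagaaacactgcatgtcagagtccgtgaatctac
Scarb1 probe at transcript base 1617, chr5:125761540-125761599, minus strand: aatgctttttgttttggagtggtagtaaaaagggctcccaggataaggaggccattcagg
Cd163 probe at transcript base 2610, chr6:124270436-124270495, plus strand: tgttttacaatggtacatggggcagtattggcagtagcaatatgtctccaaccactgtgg

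Values are log2 of the processed signal minus the 75th percentile of the array, so 0 is the level of that percentile and 1 unit is a doubling. Between 60.5% and 78.6% of probes were well above background per array. All Ctrl and M arrays lay on slide 1 and scan 1 and all T arrays on slide 2 and scan 2, so that T and its slide cannot be told apart, whereas M against Ctrl is a comparison within a slide. Ctrl replicate 3 stood apart from Ctrl replicate 1, with a correlation of 0.967 over the tested probes against 0.981 with M replicate 2. Each call of a member or named receptor-related gene that ended without Ctrl replicates 1 and 2 is given without them too. Differences named only after their values were seen were not refitted in any other setting. M replicates 1 and 3 had the highest signal on negative-control spots, 59.2 and 45.8 against 24.2 to 36.4 elsewhere. Of the sort markers, Ptprc, which encodes CD45, averaged 0.36 in Ctrl, 0.38 in T and 1.16 in M, and Adgre1, which encodes F4/80, averaged 0.51, 0.61 and 3.37. Adgre1 was 2.86 higher in M than in Ctrl (adjusted p = 1.28e-05, limma) and 2.76 higher than in T (adjusted p = 1.96e-05). Summed levels of cell type markers, here and below, are over the markers tested. The 10 macrophage markers had overlapping summed levels in Ctrl (7.42 to 7.77), T (7.04 to 7.52) and M (7.31 to 7.81), and all were above background somewhere. Of 11 large peritoneal macrophage markers 9 were tested, with overlapping summed levels in Ctrl (5.7 to 6.0), T (5.8 to 6.2) and M (5.6 to 6.1). The other 2, Timd4 and Vsig4, were above background on none of the 9 arrays. In bulk RNA, fewer cells of a type and less RNA per cell cannot be told apart.

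**Figure D1:**
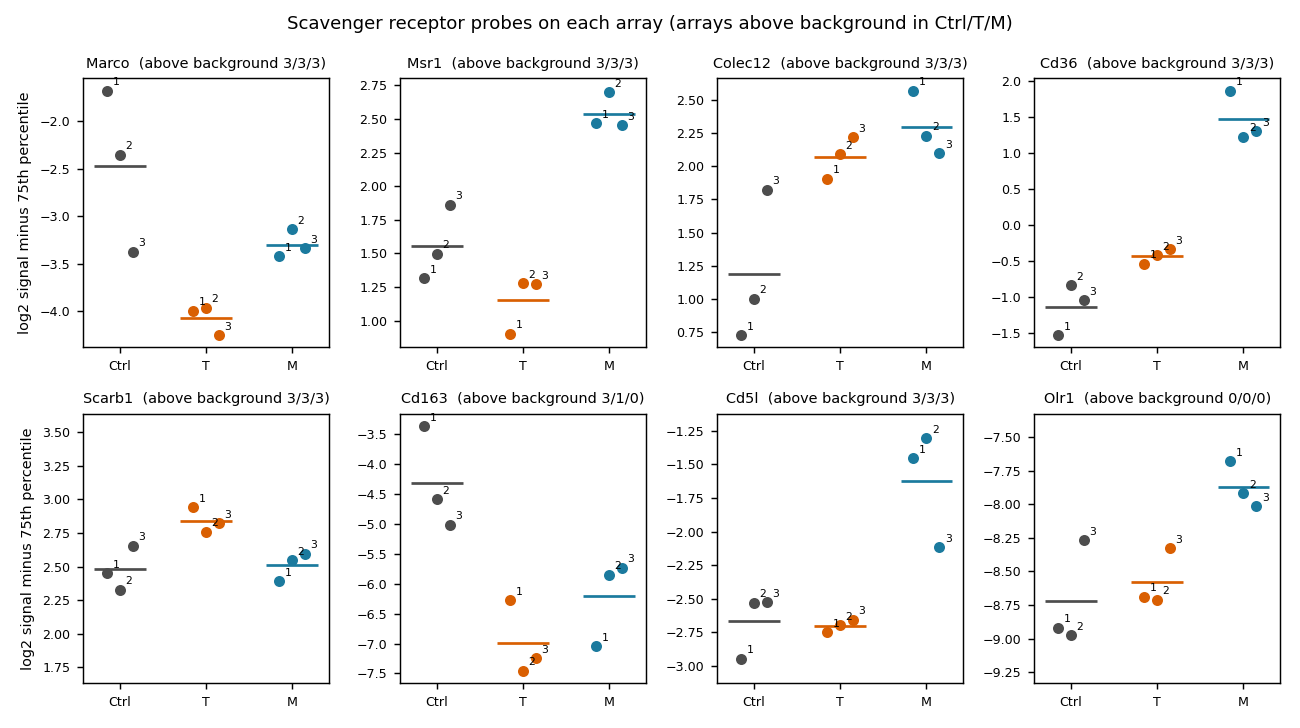
Each panel plots 1 scavenger receptor gene, with log2 processed signal minus the array's 75th percentile on the vertical axis and the 3 groups on the horizontal axis. Points are single arrays numbered by replicate, lines are group means, and the vertical scale differs between panels. Cd36 is highest on all 3 M arrays, Marco falls from Ctrl to T, and Olr1 is not above background on any array.

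In the T macrophages, co-cultured with CT-26, Marco and Cd163 were lower than in Ctrl and Cd36 and Colec12 were higher. The migratory M macrophages had more Msr1, Cd36, Colec12 and Cd5l than the Ctrl macrophages and less Cd163. Between M and T, Msr1, Cd36 and Cd5l were higher in M. By limma with Benjamini-Hochberg adjustment over all tested genes at an adjusted p of 0.05, 4 of the 7 tested members passed in T against Ctrl, where 44.7% of all genes passed. They were 2 higher (17.6% of all genes) and 2 lower (27.1%). In M against Ctrl 5 of 7 passed, 4 higher and 1 lower, where 23.5% of all genes passed, 12.3% higher and 11.1% lower. In M against T 3 of 7 passed, all higher, where 25.5% of all genes passed, 14.7% higher and 10.8% lower.

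The share of members called in T against Ctrl is thus near that of all genes. No overlap between the arrays of both groups was seen for 6, 5 and 5 of the 7 members in T against Ctrl, M against Ctrl and M against T, beside 53.4%, 36.2% and 48.3% of all genes. Scaling moves the all-gene split: calls that were higher made up 39.3% in T against Ctrl and 66.1% with median scaling, 52.5% and 74.5% in M against Ctrl, and 57.6% and 44.7% in M against T. The members' median log2 differences were -0.03, 0.98 and 0.79, beside -0.14, -0.09 and 0.11 over all genes. Cd163 passed the filter on dim probes only through Ctrl, the group where it was highest, so that its place among the lower calls partly follows from the filter. The other 6 members were above background on all 9 arrays, and over these 6 the counts were 2 higher and 1 lower in T against Ctrl, 4 higher and 0 lower in M against Ctrl and 3 higher and 0 lower in M against T, with medians of 0.16, 1.01 and 0.92. The comparisons of T and of M with Ctrl share the Ctrl arrays, and those values are therefore given side by side and not as separate evidence. Without Ctrl replicates 1 and 2, 0 members passed in T against Ctrl and 1 (Cd36) in M against Ctrl, and without M replicates 1 and 3, 2 passed in M against Ctrl.

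**Figure D2:**
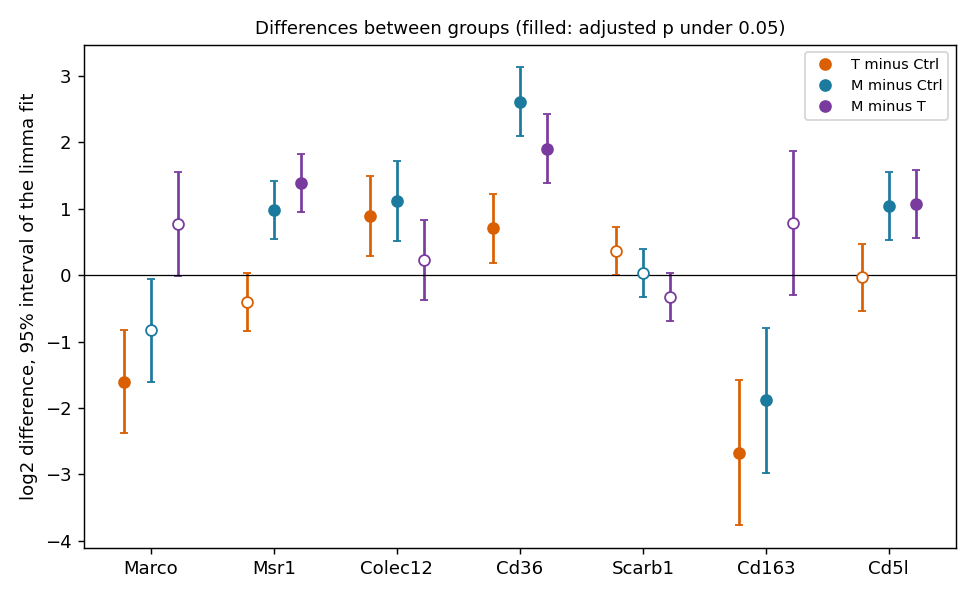
Log2 differences of the 7 tested scavenger receptors for each pair of groups (T or M minus Ctrl, and M minus T). Points are the estimates of the limma fit, bars its 95% intervals, and filled points have an adjusted p under 0.05. Cd36 in M minus Ctrl, at 2.61, is the largest rise and Cd163 in T minus Ctrl, at -2.67, the largest fall, with Cd163 above background on 1 of 3 T arrays.

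Among the class A receptors, Marco binds bacteria and unopsonised particles. Its level on the 3 Ctrl arrays was -1.68, -2.35 and -3.37, on the T arrays -4.00, -3.96 and -4.26, and on the M arrays -3.43, -3.14 and -3.34. Every T array was below every Ctrl array, and the Ctrl arrays were far more scattered (mean -2.47 ± 0.85, SD, n = 3) than those of T (-4.07 ± 0.16) or M (-3.30 ± 0.15). Marco fell by 1.60 ± 0.35 (SE) on the log2 scale in T, a 3.04-fold lower signal (adjusted p = 0.00536, limma). M lay between the other groups: its difference from Ctrl was -0.83 (95% interval -1.61 to -0.05, adjusted p = 0.103) with overlapping arrays, and its difference from T was 0.77 (adjusted p = 0.134) with no overlap. Without Ctrl replicates 1 and 2 the fall in T was -0.70 (adjusted p = 0.0607) and the difference of M from Ctrl was 0.07 (adjusted p = 0.874). Without Ctrl replicate 3 alone the difference of M from Ctrl was -1.28 and passed the test (adjusted p = 0.00213), and M was then called higher than T, as it was with only those 2 groups in the fit (0.77, adjusted p = 0.0168 and 0.00809).

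Msr1, the class A receptor for acetylated and oxidised lipoprotein, is made in forms that differ at the carboxyl end through splicing. Its probe at transcript base 624, printed above, lists 2 RefSeq transcripts and read 1.31, 1.5 and 1.86 in Ctrl, 0.90, 1.28 and 1.27 in T, and 2.47, 2.70 and 2.45 in M. The M arrays were above all others, and the T arrays lay just below the Ctrl arrays. Msr1 rose by 0.98 ± 0.20 (SE) in M over Ctrl, or 1.97-fold (adjusted p = 0.00733, limma), and by 1.39 over T, or 2.62-fold (adjusted p = 0.000698). T minus Ctrl was -0.41 ± 0.20 and did not pass (adjusted p = 0.116), and its sign turned with scaling on the array median (0.016) and in the authors' deposited value table (0.32). That table's column for T replicate 2 matched no array file, a limit on every value taken from the table here and below.

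The other Msr1 probe, at base 3231 (chr8:40689158-40689217 on mm9), lists 1 RefSeq transcript. It read -3.82, -2.87 and -2.95 in Ctrl, -2.91, -2.93 and -2.75 in T, and -0.59, -1.56 and -1.01 in M. Again the M arrays were highest, while Ctrl and T overlapped. In M this probe was 4.47-fold above Ctrl (adjusted p = 0.00134, limma over probes) and 3.51-fold above T (adjusted p = 0.00235). The gap between both Msr1 probes narrowed by 1.18 from Ctrl to M and by 0.76 from Ctrl to T, each with an exact two-sided permutation p of 0.1, the smallest that 3 arrays against 3 allow. From T to M it narrowed by 0.42 (exact permutation p = 0.4). The rise of Msr1 in M over Ctrl did not pass without M replicates 1 and 3 (1.14, adjusted p = 0.0844), without Ctrl replicates 1 and 2 (0.68, adjusted p = 0.158) or in the deposited value table (0.98, adjusted p = 0.227), and the table gave 0.66 for M over T (adjusted p = 0.49).

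Colec12, a collectin-type class A receptor with a carbohydrate-recognition domain, was higher in both co-culture groups. It read 0.73, 1.0 and 1.82 in Ctrl, 1.91, 2.09 and 2.22 in T, and 2.57, 2.23 and 2.10 in M. Every T and M array exceeded every Ctrl array, but Ctrl replicate 3 came within 0.1 of the lowest T array, and T and M overlapped. Colec12 rose 1.85-fold in T (log2 0.89 ± 0.27, SE, adjusted p = 0.0242, limma) and 2.16-fold in M (log2 1.11, adjusted p = 0.0191), and M minus T was 0.23 (95% interval -0.38 to 0.83, adjusted p = 0.588).

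Both Colec12 calls rest on few arrays. The rise in T did not pass without Ctrl replicate 1 (0.66, adjusted p = 0.0867), Ctrl replicate 2 (0.80, 0.0808), T replicate 2 (0.88, 0.0679) or T replicate 3 (0.81, 0.0812), and without Ctrl replicates 1 and 2 it was 0.25 (adjusted p = 0.488). The rise in M did not pass without Ctrl replicate 1 (0.88, adjusted p = 0.0675), Ctrl replicate 2 (1.02, 0.0742) or M replicate 1 (0.98, 0.0726), without M replicates 1 and 3 (1.04, 0.246), without Ctrl replicates 1 and 2 (0.47, 0.357) or after normexp background correction (0.75, 0.0658).

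Cd36, the class B receptor for oxidised lipoprotein, long-chain fatty acids and thrombospondin, had the largest rise of any member. It read -1.53, -0.84 and -1.04 in Ctrl, -0.54, -0.42 and -0.34 in T, and 1.87, 1.23 and 1.31 in M. The groups formed 3 separate ranges, with Ctrl lowest and M highest. In M, Cd36 was 6.10-fold above Ctrl (log2 2.61 ± 0.23, SE, adjusted p = 3.18e-05, limma) and 3.74-fold above T (log2 1.90, adjusted p = 0.000267). The rise over Ctrl passed in all 21 other settings, between 2.37 and 2.91. M over T missed the threshold in the deposited value table (1.16, adjusted p = 0.211).

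In T, Cd36 was 1.63-fold above Ctrl (log2 0.71, adjusted p = 0.0319, limma). With the replicate number as a block this was 0.71 (adjusted p = 0.0545), without Ctrl replicate 1 0.51 (0.113), and without T replicate 1, 2 or 3 it was 0.76 (0.0511), 0.70 (0.0856) and 0.66 (0.1). The deposited value table gave 1.46 (0.0634), and the fit without Ctrl replicates 1 and 2 gave 0.61 (0.156). Platelets, endothelium and adipocytes also carry Cd36. The 9 platelet and erythroid markers had summed levels of 0.30 to 0.48 in Ctrl, 0.43 to 0.70 in T and 2.32 to 3.49 in M, with Alas2 and Hbb-bs above background on no array and Pf4, a platelet chemokine that macrophages also make, 5.98 higher in M than in Ctrl (adjusted p = 1.44e-06, limma). Summed endothelial markers were 2.30 to 2.51 in Ctrl, 2.58 to 2.64 in T and 2.30 to 2.51 in M, with Cdh5 and Lyve1 above background on no array. The endothelial kinase Tie1, however, was 1.64 higher in T than in Ctrl (adjusted p = 0.000148) and 3.42 higher in M than in Ctrl (adjusted p = 8.86e-07). Tie1 was 1.78 higher in M than in T (adjusted p = 9.01e-05), the order of groups seen for Cd36. Tek, another endothelial kinase, went the other way in T against Ctrl (-3.50, adjusted p = 0.0107, limma), with 1 of 3 T arrays above background. Tek passed the filter on dim probes only through Ctrl, where it was highest, so its lower call partly follows from the filter. In the other settings its difference ran from -4.65 to -1.21. Of 8 endothelial markers tested, 4 rose and 1 fell in T against Ctrl. In M 1 rose and 1 fell against Ctrl, and 1 rose and 2 fell against T. Of all genes 44.7%, 23.5% and 25.5% were called in these comparisons. Summed adipocyte markers were 3.71 to 3.98 in Ctrl, 4.12 to 4.48 in T and 3.27 to 3.64 in M. The sum is led by the brightest markers: of 7 adipocyte markers tested, 1 rose and 5 fell in T against Ctrl (median -1.04). In M 0 rose and 2 fell against Ctrl (median -0.38), and 1 rose and 2 fell against T (0.19). The part of platelets, endothelium and adipocytes in the Cd36 values was not tested.

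Scarb1 is the class B receptor for high-density lipoprotein, and its splice forms differ in the cytoplasmic tail. Its brighter probe, at base 2435 (chr5:125757483-125757542 on mm9), lists 2 RefSeq transcripts and stood for the gene. It read 2.45, 2.33 and 2.65 in Ctrl, 2.94, 2.76 and 2.82 in T, and 2.39, 2.55 and 2.60 in M. The T arrays were above all others, by a narrow margin. T minus Ctrl was 0.36 ± 0.16 (SE, 95% interval 0.01 to 0.72, adjusted p = 0.0905, limma), M minus Ctrl 0.03 (-0.32 to 0.39, adjusted p = 0.887) and M minus T -0.33 (-0.69 to 0.03, adjusted p = 0.164).

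The Scarb1 probe at base 1617, printed above, lists 1 RefSeq transcript and read -0.05, -0.06 and 0.16 in Ctrl, 0.90, 1.11 and 1.03 in T, and 0.10, 0.34 and 0.14 in M. T stood clear of both other groups. On this probe Scarb1 was 2.0-fold higher in T than in Ctrl (log2 1.0 ± 0.17, SE, adjusted p = 0.00168, limma over probes), and it fell by 0.82 from T to M (adjusted p = 0.0063). M minus Ctrl was 0.18 (95% interval -0.19 to 0.55, adjusted p = 0.437). Relative to the base 2435 probe, this probe gained 0.63 from Ctrl to T and lost 0.49 from T to M, each with an exact two-sided permutation p of 0.1, the smallest possible, and it gained 0.14 from Ctrl to M (exact permutation p = 0.2). The gene's difference in T was called with the mean of both probes (0.68, adjusted p = 0.00489), after quantile normalization (0.39, 0.0205), with scaling on the array median (0.79, 0.0144) and without Ctrl replicate 3 (0.45, 0.0286). M minus T was called with the mean of both probes (-0.58, 0.0163) and after quantile normalization (-0.36, 0.0382).

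**Figure D3:**
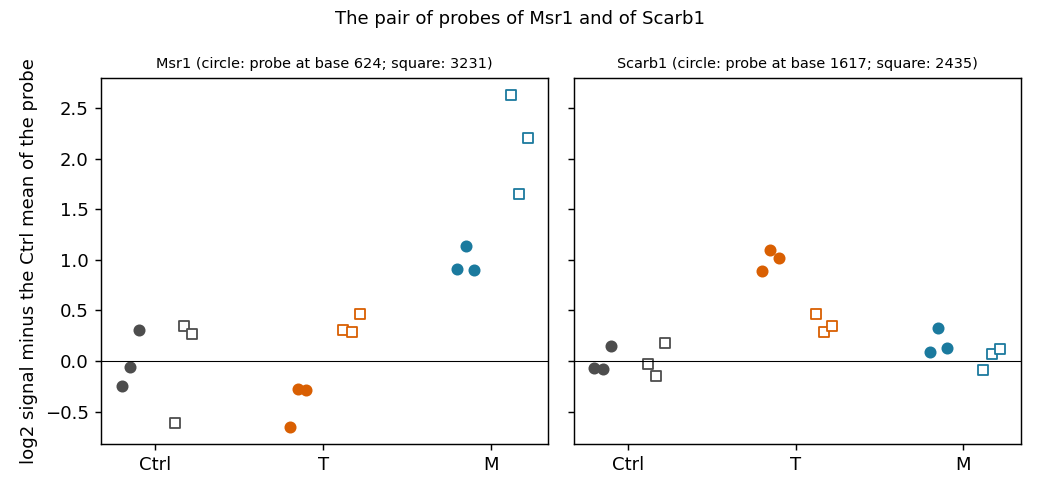
The pair of probes of Msr1 (left) and of Scarb1 (right), with each value as log2 signal minus that probe's own Ctrl mean. Each symbol is 1 array, circles are the probe with the lower transcript base and squares the other. The Msr1 probe at base 3231 is 2.16 above its Ctrl mean in M where the probe at base 624 is 0.98 above, and the Scarb1 probe at base 1617 is 1.0 above in T where the probe at base 2435 is 0.36 above.

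Cd163, the receptor for haptoglobin-haemoglobin complexes and a marker of alternatively activated macrophages, fell in both co-culture groups. Its probe, printed above, read -3.37, -4.58 and -5.01 in Ctrl, -6.28, -7.45 and -7.25 in T, and -7.04, -5.85 and -5.73 in M. Every Ctrl array lay above all T and M arrays. The probe was well above background on all 3 Ctrl arrays, on 1 T array and on 0 M arrays, so its M values give only a bound and its T values rest mostly on dim signals. T minus Ctrl was -2.67 ± 0.49 (SE, adjusted p = 0.00235, limma), and with normexp background correction it was -0.97 (adjusted p = 0.0189), so the call held and its size did not. In M it was at least 2.39-fold lower than in Ctrl, taken as the Ctrl mean over the lowest signal well above background on each M array (adjusted p = 0.0238). This bound belongs to the reported setting, since with normexp the measured difference was -0.91 (adjusted p = 0.0414), a smaller fold. M minus T was 0.79 (95% interval -0.30 to 1.87, adjusted p = 0.274), with M not above background.

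The difference of Cd163 in T was -1.98 without Ctrl replicates 1 and 2 (adjusted p = 0.058). Its call in M ended without Ctrl replicate 1 (adjusted p = 0.0794), Ctrl replicate 2 (0.0577) or M replicate 1 (0.0835), without M replicates 1 and 3 (0.295) and without Ctrl replicates 1 and 2 (0.347).

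Cd5l, a secreted protein of macrophages that binds lipids and is taken up through Cd36, was higher in M than in both other groups. It read -2.94, -2.53 and -2.52 in Ctrl, -2.75, -2.69 and -2.66 in T, and -1.46, -1.31 and -2.12 in M. All M arrays exceeded all Ctrl and T arrays, which overlapped. Cd5l rose 2.06-fold in M over Ctrl (log2 1.04 ± 0.23, SE, adjusted p = 0.0118, limma) and 2.11-fold over T (log2 1.07, adjusted p = 0.00722), and T minus Ctrl was -0.03 (95% interval -0.54 to 0.48, adjusted p = 0.914). The difference over T passed in all 21 other settings, and that over Ctrl in all except the fit without Ctrl replicates 1 and 2 (0.90, adjusted p = 0.168). Olr1, the receptor for oxidised lipoprotein known from endothelium, was well above background on 0 of 9 arrays, which read -8.97 to -7.68, so no level or fold is given.

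**Figure D4:**
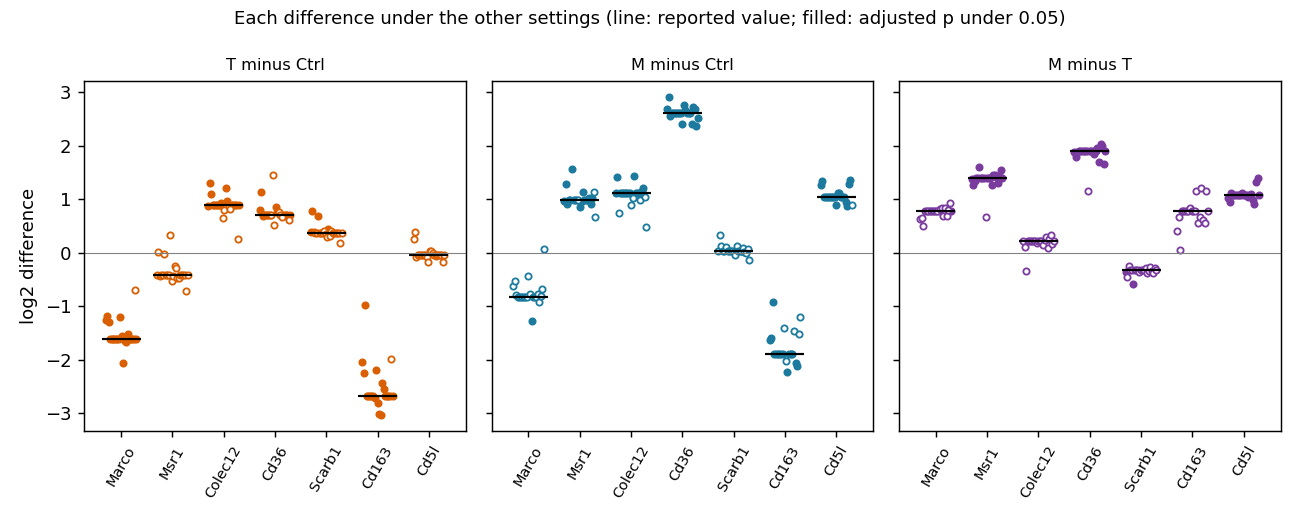
Each difference of the 7 tested members under the reported setting (black line) and under every other setting (points), with each pair of groups in a panel of its own and log2 difference on the vertical axis. Filled points have an adjusted p under 0.05. Of the 12 member calls, 2 passed in every setting: Cd36 in M over Ctrl and Cd5l in M over T.

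Members were next set beside the genes whose profiles over the 9 arrays were closest, as the root mean square distance of mean-centred log2 values. For Marco these were A4gnt (0.0863) and Gk2 (0.0986), and for Msr1 Prune (0.105) and Abi3 (0.130). Pld1 (0.228) and Rai14 (0.251) were closest to Cd36, and Tex28 (0.359) and Ccdc42 (0.389) to Cd163. Nek3 (0.134) and Tmem40 (0.146) were closest to Colec12, and Ugt1a10 (0.157) and Snx27 (0.171) to Cd5l. These distances are a description over 9 arrays.

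The gene lists that follow are read against the 44.7%, 23.5% and 25.5% of all genes called in T against Ctrl, M against Ctrl and M against T. Of the named results on them, 1 of 23, 8 of 24 and 4 of 19 lost their call without some single array, and 9, 14 and 0 lost it without Ctrl replicates 1 and 2.

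Further scavenger receptors, from a list of 18 with 13 tested, moved in different directions. In T against Ctrl 3 rose and 3 fell (median log2 difference 0.22, against -0.14 over all genes), in M against Ctrl 4 rose and 1 fell (-0.06), and in M against T 2 rose and 2 fell (0.22). Those calls make 46.2%, 38.5% and 30.8% of the genes tested, the first near the share of all genes. Stab1, a multi-domain receptor of tissue macrophages, rose by 1.53 in T (adjusted p = 8.13e-05, limma) and by 1.79 in M (adjusted p = 2.79e-05). Clec7a, the beta-glucan receptor, rose by 2.47 in M over Ctrl (adjusted p = 0.000194) and by 2.21 over T (adjusted p = 0.000344). Scarf2, a class F receptor, rose by 2.01 over Ctrl (adjusted p = 1.65e-05) and 2.15 over T (adjusted p = 1.27e-05). Asgr1, a galactose-binding lectin receptor, fell by 1.2 in T (adjusted p = 0.0117) and by 1.28 in M (adjusted p = 0.0189). The Asgr1 differences without Ctrl replicates 1 and 2 were -0.58 (adjusted p = 0.276) and -0.66 (0.384), and in M the adjusted p reached 0.0782 leaving out 1 array, with the call ending without Ctrl replicate 1 or 2 or M replicate 1 or 3.

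Stab2 rose by 1.14 in T (adjusted p = 0.00459, limma) and fell by 1.86 from T to M (adjusted p = 0.000389), but its probes disagreed, and with their mean T minus Ctrl was -0.29 (adjusted p = 0.297). Scara3 fell by 0.82 in T (adjusted p = 0.0215), a call that ended without Ctrl replicate 1 or 2 or T replicate 2 or 3 (adjusted p up to 0.0874) and without both Ctrl replicates 1 and 2 (-0.39, 0.371). Lrp1, a large endocytic receptor of the lipoprotein receptor family, rose by 0.76 in T (adjusted p = 0.00677; 0.75 and 0.0676 without Ctrl replicates 1 and 2) and fell by 0.87 from T to M (adjusted p = 0.0052). Named after their values were seen, Scara5 fell by 1.24 in T with overlapping arrays (adjusted p = 0.0269) and Cxcl16 rose by 0.85 in M over Ctrl (adjusted p = 0.0108). Mrc1, Scarf1, Megf10, Cd163l1 and Lrp2 were too dim to be tested.

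**Figure D5:**
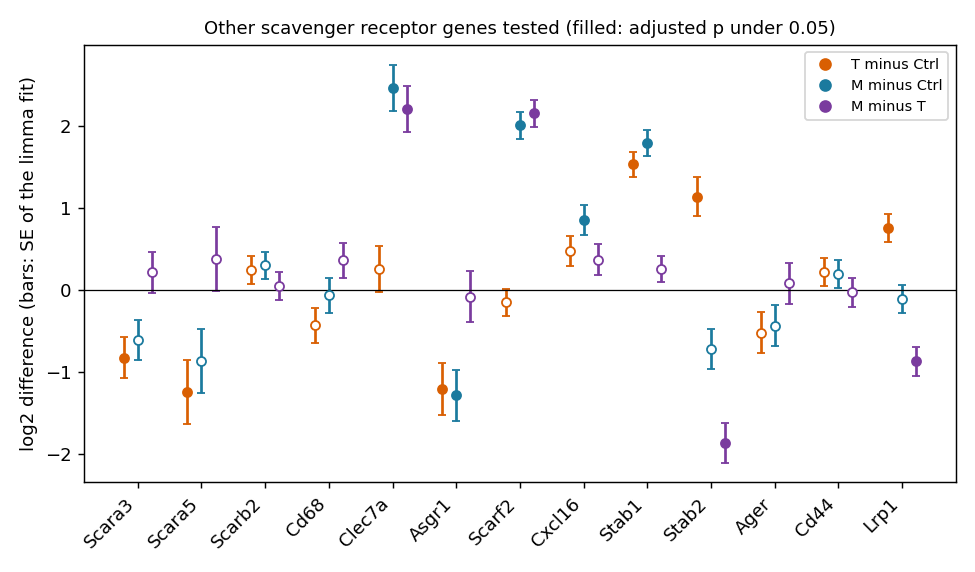
Log2 differences of the 13 further scavenger receptor genes tested, for each pair of groups. Points are estimates, bars are the SE of the limma fit, and filled points have an adjusted p under 0.05. Stab1 is higher in T (1.53) and M (1.79) than in Ctrl, and Clec7a (2.47) and Scarf2 (2.01) are higher in M than in Ctrl.

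Ligands of the receptors were measured as transcripts of the same cells, 13 of 17 of them tested. In T against Ctrl 2 rose and 3 fell (median 0.02), in M against Ctrl 2 rose and 3 fell (-0.12), and in M against T 1 rose and 0 fell (0.10), or 38.5%, 38.5% and 7.69% of those tested, the first and the last below the share of all genes. Saa3, an acute-phase apolipoprotein, rose by 2.60 in T (adjusted p = 0.000111, limma) and by 2.05 in M (adjusted p = 0.000679). Hp, which delivers haemoglobin to Cd163, rose by 1.26 in M (adjusted p = 0.000758), and, named after its value was seen, by 1.03 in T (adjusted p = 0.00151). Apob, the low-density lipoprotein protein, was at least 2.43-fold lower in T (adjusted p = 0.00477) and at least 1.28-fold lower in M (adjusted p = 0.024) than in Ctrl. It passed the filter on dim probes only through Ctrl, where it was highest, so its lower calls partly follow from the filter. These bounds belong to the reported setting. In the other settings its log2 difference ran from -1.71 to -0.53 in T and from -1.46 to -0.39 in M.

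C1qa, a complement opsonin, fell by 1.26 in T (adjusted p = 0.00127, limma) and, named after its value was seen, by 0.69 in M (adjusted p = 0.0372). Hmgb1, a nuclear protein released from damaged cells, fell by 1.09 in T (adjusted p = 0.0037) and by 0.70 in M (adjusted p = 0.0444), the latter turning to 0.02 (adjusted p = 0.919) with the mean of its probes. Anxa1, which marks apoptotic cells, rose by 0.85 from T to M (adjusted p = 0.0209). Without Ctrl replicates 1 and 2, Hmgb1 was at -0.99 in T (adjusted p = 0.0672) and -0.61 in M (0.369), and Apob lost its calls in T (adjusted p = 0.129) and M (0.456). Leaving out 1 array ended the M calls of Hmgb1 (without Ctrl replicate 1 or 2, any T replicate, or M replicate 1 or 3, adjusted p up to 0.147) and Apob (without Ctrl replicate 1 or 2 or M replicate 1 or 3, up to 0.0941), and that of Anxa1 (without T replicate 1 or 2 or M replicate 2, up to 0.0725). The tested ligands did not include Thbs1, Thbs2, Hpx and C1qc, which were too dim.

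Of the 20 co-receptors and signalling partners, 7 rose and 2 fell in T against Ctrl (median 0.40), 6 rose and 2 fell in M against Ctrl (0.25), and 1 rose and 5 fell in M against T (-0.02). These are 45%, 40% and 30% of the genes, the first at the share of all genes. Mertk, a kinase receptor for apoptotic cells, rose by 2.74 in T (adjusted p = 8.73e-06, limma) and was 2.26 lower in M than in T (log2 -2.26, adjusted p = 2.93e-05). Tlr6, which signals with Cd36, rose by 2.08 in T (adjusted p = 0.00068) and by 1.01 in M (adjusted p = 0.0391), with M minus T at -1.07 (adjusted p = 0.0262). Src, a kinase downstream of Cd36, fell by 1.08 in T (adjusted p = 0.00307) and rose by 0.98 from T to M (adjusted p = 0.00713).

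The kinase Lyn rose by 1.13 (adjusted p = 0.00995, limma) and the exchange factor Vav1 by 0.93 (adjusted p = 0.0235) in M over Ctrl. Adam10, a sheddase, fell by 1.11 in M (adjusted p = 0.00289). Cav1, the caveola protein, fell by 1.40 in T (adjusted p = 0.00688), and Tlr4 fell by 1.35 from T to M (adjusted p = 0.0386).

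Several of these partners rest on single arrays. Tlr4 lost its call without Ctrl replicate 2 or any T or M replicate (adjusted p up to 0.132). Tlr6 lost its call in M over Ctrl without any 1 of 7 arrays, Ctrl replicate 3 and M replicate 2 being the others (up to 0.133), and from T to M without T replicate 2 or 3 or M replicate 2 (up to 0.0895). Vav1 lost its call without Ctrl replicate 1 or 2 or M replicate 2 or 3 (up to 0.0918). Without Ctrl replicates 1 and 2, Tlr6 in M was at 0.70 (adjusted p = 0.316), Vav1 at 0.37 (0.415), Lyn at 0.68 (0.174) and Adam10 at -0.93 (0.0814), and in T Cav1 was at -0.61 (0.156) and Src at -0.85 (0.0711).

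Among 20 tested transcriptional regulators of scavenger receptors, 7 rose and 1 fell in T against Ctrl (median 0.19), 4 rose and 2 fell in M against Ctrl (0.25), and 3 rose and 4 fell in M against T (-0.04), or 40%, 30% and 35% of those tested, the first near the share of all genes. Rxra, the partner of the nuclear receptors that regulate Cd36, rose by 1.02 in T (adjusted p = 0.00611, limma) and by 3.55 in M (adjusted p = 3.13e-06), with M 2.53 above T (adjusted p = 3.94e-05). Bach1, a haem-sensing repressor, rose by 1.64 in M over Ctrl (adjusted p = 0.00439) and 1.62 over T (adjusted p = 0.00331), and without Ctrl replicates 1 and 2 the former was 1.14 (adjusted p = 0.107).

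Nr1h2, the liver X receptor beta, rose by 1.15 in M over Ctrl (adjusted p = 0.00569, limma; 0.82 and 0.0714 without Ctrl replicates 1 and 2). Ppard rose by 1.34 in T (adjusted p = 0.000626) and fell by 1.03 from T to M (adjusted p = 0.00337), and Klf4 rose by 1.11 in T (adjusted p = 0.000964) and fell by 0.90 from T to M (adjusted p = 0.00404). Pparg, the receptor best known for driving Cd36, was named after its value was seen: it fell by 0.89 from Ctrl to M (adjusted p = 0.0312), as did Tfeb by 0.70 (adjusted p = 0.021), and Srebf2 fell by 0.60 in T (adjusted p = 0.0264).

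Lipid taken up through these receptors is hydrolysed, re-esterified or exported. Of the 23 genes for these steps, 7 rose and 5 fell in T against Ctrl (median -0.06), 5 rose and 0 fell in M against Ctrl (0.08), and 7 rose and 5 fell in M against T (0.11). They are 52.2%, 21.7% and 52.2% of the genes, the first pair near the shares of all genes. Dgat2, which makes triglyceride, rose by 2.28 in T (adjusted p = 1.87e-05, limma) and by 1.30 in M (adjusted p = 0.000894), and fell by 0.98 from T to M (adjusted p = 0.0038). Nceh1, a cholesteryl ester hydrolase, rose by 1.69 in M over Ctrl (adjusted p = 0.0028) and by 1.48 over T (adjusted p = 0.00428). Abca1, the cholesterol exporter, was above background only in T, where it was at least 1.46-fold higher than in Ctrl. The limma test was on the measured log2 difference of 2.76 (adjusted p = 1.26e-05). Abca1 passed the filter on dim probes only through T, where it was highest, so its higher call partly follows from the filter. Its call in M against Ctrl, among the 5 above, compares values that were not well above background in either group. That call ended without Ctrl replicate 1 or 2 or M replicate 1 (adjusted p up to 0.0669). Without both Ctrl replicates 1 and 2 the difference in M was 0.45.

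The fatty acid ligase Acsl4 rose by 1.36 in M over Ctrl (adjusted p = 0.00354, limma). Lipa, the lysosomal acid lipase, rose by 0.95 from T to M (adjusted p = 0.0098). Vldlr fell by 1.28 (adjusted p = 0.00231) and Ch25h by 1.57 (adjusted p = 0.00505) in T. Ch25h was above background on 3 Ctrl, 2 T and 1 M arrays. It passed the filter on dim probes only through Ctrl, where it was highest, so its lower call partly follows from the filter. Acsl4 was at 1.09 (adjusted p = 0.0556) and Ch25h at -0.80 (0.147) without Ctrl replicates 1 and 2.

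Cd163 cargo is broken down through haem and iron handling, with 12 of 13 genes tested. In T against Ctrl 2 rose and 1 fell (median 0.18), in M against Ctrl 4 rose and 1 fell (0.51), and in M against T 2 rose and 1 fell (0.36), or 25%, 41.7% and 25% of those tested, the first below and the last at the share of all genes. Hmox1, the haem oxygenase, rose by 1.11 in T (adjusted p = 0.00193, limma) and by 0.91 in M (adjusted p = 0.0102). Slc11a1, a phagosomal metal transporter, rose by 1.56 in M over Ctrl (adjusted p = 0.00125) and by 1.26 over T (adjusted p = 0.00328). Flvcr1, a haem exporter, rose by 0.97 (adjusted p = 0.0345), and Slc40a1, the iron exporter, by 0.77 (adjusted p = 0.04) in M over Ctrl. Flvcr2 fell by 1.40 in T (adjusted p = 0.00732), and Blvrb, a biliverdin reductase, rose by 0.84 from T to M (adjusted p = 0.0177). Slc40a1 lost its call in 11 of 21 other settings, among them the fits without Ctrl replicate 1 or 2, any T replicate, or M replicate 1 or 3 (adjusted p up to 0.135). Flvcr1 lost it in 9 of 21, among them those without Ctrl replicate 1 or 2, T replicate 2, or M replicate 1 or 3 (up to 0.122), and Blvrb without T replicate 2 or 3 or M replicate 2 (up to 0.0775). Without Ctrl replicates 1 and 2, Slc40a1 was at 0.32 (adjusted p = 0.502), Flvcr1 at 0.84 (0.273), Hmox1 in M at 0.55 (0.179) and Flvcr2 in T at -0.83 (0.194).

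Markers of CT-26-like epithelium were read beside the T values, since these macrophages shared a chamber system with carcinoma cells. The 14 epithelial markers had summed levels of 1.26 to 2.11 in Ctrl, 1.36 to 1.57 in T and 1.10 to 1.48 in M, and of the 10 tested, 2 rose and 5 fell from Ctrl to T. Krt19, a keratin of simple epithelia, was 3.63 higher in T (adjusted p = 1.06e-05, limma), while Ocln, a tight-junction protein, fell by 1.68 (adjusted p = 0.00146). S100a8, a granulocyte alarmin also made by activated macrophages, was 3.06 higher in T (adjusted p = 7.99e-06) and 4.97 higher in M (adjusted p = 2.71e-07) than in Ctrl, with summed granulocyte markers of 3.96 to 4.67, 4.18 to 4.55 and 4.30 to 4.77 in Ctrl, T and M. Of 9 granulocyte markers tested, 1 rose and 4 fell in T (median -0.84), with Elane, a neutrophil protease, at -2.56 (adjusted p = 0.00511), and 3 rose and 0 fell in M against Ctrl. Among markers of small peritoneal and monocyte-derived macrophages, H2-Aa was 3.58 higher in M than in Ctrl (adjusted p = 0.000198). H2-Aa was above background on 2 Ctrl, 2 T and 3 M arrays. It passed the filter on dim probes only through M, where it was highest, so its higher call partly follows from the filter. Of 7 markers of this list tested, 3 rose and 0 fell in M against Ctrl (median 0.23), where 23.5% of all genes were called. Their summed levels were 5.06 to 5.40, 5.30 to 5.73 and 5.20 to 5.56 in Ctrl, T and M. The part of these cell types in the scavenger receptor values was not tested.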

How the data were processed

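The scavenger receptor genes and the gene lists were chosen with earlier results of these data known. Per the submitters' processing notes, the authors' spot reader was Agilent Feature Extraction 10.7.3.1. Per the file headers, the deposited scanner files give each spot's processed intensity after background subtraction and spatial detrending, with no scaling across arrays, and probe positions on mm9. Of 62976 spots per array, 59305 were not controls and gave 55681 probes after spots of a probe were averaged, with outlier spots left out (147 to 299 per array) and 0 spots saturated. Probes were named through RefSeq accessions (26762) or by the array's own name (5665), and 23254 stayed unnamed. The deposited intensity was put on the log2 scale relative to the 75th percentile within each array. Probes entered the test if all 3 arrays of some group had them well above background, and a gene's brightest probe represented it. The precision rests on 3 arrays per group.

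Group means of all 9 arrays were fitted with limma 3.58.1 in R 4.3.3 (lmFit, eBayes), adjusted by Benjamini-Hochberg over 18161 genes, with an SE pooled over all arrays. For a probe that no array of a group had above background, the fold is a lower bound against the lowest signal well above background, and says "at least". Named were all members, per list and comparison up to 4 genes with the largest difference among those called with no overlap of arrays (2 for cell type markers), the sort markers, and 2 nearest profiles per called member. Some genes that this rule names are not reported here. On simulated data the fit recovered 94% of genes raised or lowered by 2 on the log2 scale for T against Ctrl and 38% of those raised by 1, with 5 false of 139 calls. The data themselves gave 8117 calls in T against Ctrl, far more than the simulation, so these rates need not hold for the fit reported here. Deviations of same-numbered T and Ctrl arrays from their group means correlated (0.55, 0.12 and 0.38 for replicates 1 to 3), and those of unlike numbers ran from -0.45 to 0.19. This is a weak hint from the data that numbers pair these samples, since T replicate 2 correlated more with Ctrl replicate 3 than with Ctrl replicate 2. M arrays showed no such pairing (-0.27, -0.19 and 0.02 with Ctrl, and -0.18 to 0.35 for unlike numbers).

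The authors' deposited value table served as an alternative. Its columns for Ctrl replicate 1 and all M replicates are on a linear intensity scale (medians 215, 195, 246 and 219) and the others are by their values log2, with medians of -3.39 and -3.71 (Ctrl replicates 2 and 3) and -3.76, -3.93 and -4.03 (T replicates 1 to 3). The M1 and M2 columns matched each other's scanner file, and the T2 column matched none, so that its log2 scale rests on its values alone and its centring stays unknown. No direction is at stake in the other 8 columns, which are signals and not ratios.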

Additional observations from a re-analysis of the deposited data

How the results depend on the processing

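Alternatives changed the normalization, background correction, dim-probe filter, probe choice, samples in the fit, variance prior, replicate block, value source and arrays used; 2 of 12 member calls held in every one. Slide as a block could not be run for T, since each slide holds T or no T. Of 131 other named results, 45 kept direction and side of the threshold throughout and 86 lost a call somewhere. Array number and low signal limit the precision, most for Cd163.

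Leaving out 1 array gave 2 to 5 members called in T against Ctrl and 3 to 6 in M against Ctrl. Counts of all genes called so ranged from 5470 to 9681 in T against Ctrl (8117 reported). They ranged from 1854 to 7816 in M against Ctrl (4260 reported) and from 2866 to 6119 in M against T (4626). Without Ctrl replicates 1 and 2 the counts were 3287 genes and 0 members in T against Ctrl (8117 and 4 reported), and 1263 genes and 1 member in M against Ctrl. Without M replicates 1 and 3 they were 903 genes and 2 members in M against Ctrl and 2354 genes in M against T. Only the 2 groups compared gave 2254 genes in M against Ctrl. The deposited value table gave 2063 genes in M against Ctrl, and 1393 genes and 1 member in M against T, and no filter on dim probes gave 7149 genes there. The cause was not tested, except that single-array and pair omissions leave fewer samples.

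With the replicate block 3 members and 7810 genes were called in T against Ctrl, and Cd36 lost its call there. Chosen after seeing the data, the block on T and Ctrl arrays only gave 4 members and 9254 genes. No other member call changed with the block.

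The share of higher calls in T against Ctrl was 39.3%, 52.5% after quantile normalization and 66.1% with median scaling, as the median of all genes moved from -0.14 to 0.00 and 0.28. In M against Ctrl it was 52.5%, and 66.3% and 74.5% under those scalings, 65.4% with no filter, 63.4% with only the 2 groups and 64.5% from the deposited table; the median moved from -0.09 to 0.04 and 0.21. In M against T it was 57.6%, 44.7% with median scaling and 71.9% with no filter, with a median of 0.11, -0.01 and 0.25.

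Directions turned for small differences. T minus Ctrl of Cd5l was 0.25 after quantile normalization and 0.39 with median scaling, and -0.174 to 0.0364 leaving out 1 array. Msr1 turned to 0.016 with median scaling and 0.32 from the deposited table, Ptprc to -0.0248 with normexp, -0.29 without Ctrl replicates 1 and 2 and -0.10 to 0.18 leaving out 1 array. Adgre1 turned to -0.38 without Ctrl replicates 1 and 2 and -0.0905 to 0.34 leaving out 1 array, and Stab2 to -0.29 with the mean of its probes. M minus Ctrl of Hmgb1 was 0.0247 with the mean of its probes, of Marco 0.0743 and of Scarb1 -0.14 without Ctrl replicates 1 and 2, and of Scarb1 -0.0407 to 0.12 leaving out 1 array. M minus T of Colec12 was -0.34 with normexp.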
